A study of Mus musculus with 4 samples.

Results

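Chemokines and their receptors in the liver of obese mice were described gene by gene. The family was taken as the gene symbols that begin with Ccl, Cxcl, Ccr, Cxcr or Ackr followed by a digit, together with Cx3cl1, Cx3cr1, Xcl1 and Xcr1. Of 24346 symbols, 62 belonged to it, and 35 of these reached at least 0.5 FPKM in any library. Of the 35, 34 (24 ligands and 10 receptors) are given with every value, and all counts are over these 34. FPKM counts fragments per kilobase of transcript, scaled to the number of mapped fragments in the library, so that levels can be set side by side between genes. Of all symbols, 12502 reached the same level.

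Livers came from male ob/ob mice, which become obese because they lack leptin. Special diets were given for 4 weeks from 6 weeks of age. CD was a regular chow and WD a high-fat Western type diet, both with 1% cholesterol, and CD+7KC and WD+7KC also held 0.01% of 7-ketocholesterol (7KC), an oxidised form of cholesterol. Each group had 1 RNA-seq library of whole liver, and the number of mice behind a library is not given in the sources used here, so that differences cannot be set against the spread between mice and no test is reported. All groups share the loss of leptin and the added cholesterol, and a lean or cholesterol-free group is not analysed here.

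Chemokines are small secreted proteins that guide leukocytes along concentration gradients. They fall into CC, CXC, CX3C and XC classes by the spacing of their first cysteines, and they act through G protein-coupled receptors that are named after the class they bind. Atypical chemokine receptors bind the same ligands without coupling to G proteins and clear, carry or present them. In a steatotic liver, Kupffer cells, hepatocytes, stellate cells and sinusoidal endothelial cells can all release chemokines, and monocytes that enter through Ccr2 can become macrophages.

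Summed over all genes, FPKM came to 602059 in WD+7KC, below the 696062 to 715605 of the 3 other libraries, and the hepatocyte gene Alb was the highest in each library. Low FPKM values lay on steps of whole reads, from which 10940000 (CD), 10980000 (CD+7KC), 9440000 (WD) and 12100000 (WD+7KC) mapped fragments were estimated. Differences are given as the log2 ratio of FPKM + 0.1. Beside them stands the 95% exact (Clopper-Pearson) counting interval of the log2 ratio without the added 0.1, computed from the estimated reads. It covers counting error between 2 libraries only, and not the spread between mice. Rescaling the libraries to equal sums moved the median log2 ratio of the 12502 genes from -0.01 to 0.20 in WD+7KC relative to WD and from -0.01 to 0.20 in WD+7KC relative to CD+7KC, because of the low sum of WD+7KC.

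With 7KC in the Western type diet, 8 of 10 receptors and 16 of 24 ligands were higher, and the most abundant chemokine, Cxcl12, was lower. In WD+7KC relative to WD, 24 of the 34 genes were higher (70.6%, beside 47.9% of all genes) and 10 lower. Their median log2 ratio was 0.47 beside -0.01 over the 12502 genes. After rescaling to equal sums the medians were 0.67 and 0.20. The log2 ratio was above 1 for 9 of the 34 genes (26.5%), beside 4.77% of all genes, and below -1 for 1 gene, Ccl17, beside 1.5%. Of the 9 genes, Ackr4 and Ccl21a were listed at 0 in WD, and Ccl17 was listed at 0 in WD+7KC, so that no fold is read from them. The others were Ackr1, Ackr2, Ackr3, Ccl6, Ccr2, Cxcl2 and Cxcl9. The counting interval lay above 0 for 11 genes (32.4%), beside 16.6% of 11769 genes with estimated reads, and below 0 for Cxcl12 alone (2.94%), beside 19.6%. Receptors among the 11 were Ackr1, Ackr2, Ackr3 and Ccr2, and the Ackr genes rested on 1, 10 and 3 reads in WD. Liver was sequenced in bulk, so that more cells of a type and more RNA per cell cannot be told apart.

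With 7KC in the chow more of the genes were lower than higher. In CD+7KC relative to CD, 12 of the 34 genes were higher (35.3%, beside 49.1% of all genes) and 22 lower, and their median was -0.35 beside -0.004 over all genes. That median was -0.12 over genes with at least 1 FPKM and -0.003 with no filter (22 higher and 28 lower), so that its size depends on the genes at low levels. Log2 ratios above 1 were found for Ackr1, Ackr3 and Ccl21a (3 genes, 8.82%, beside 2.5% of all genes). Ratios below -1 were found for Ccl22, Ccl4, Ccr1, Ccr7, Cxcl14 and Cxcl2 (6 genes, 17.6%, beside 1.7%). The counting interval lay above 0 for 2 genes (5.88%, beside 13.4%), which were Ackr3 and Ccl9. It lay below 0 for 6 genes (17.6%, beside 14.8%), which were Ccl2, Ccl22, Ccl27a, Ccr1, Cxcl12 and Cxcl14. After rescaling to equal sums or equal upper quartiles the interval of Ccl27a held 0, which left 5 genes. Both 7KC comparisons rest on separate libraries. Of the 34 genes, 9 were higher with 7KC under both diets, 7 were lower under both, 15 were higher under WD and lower under CD, and 3 were lower under WD and higher under CD. Rescaling to equal sums turned the sign of Cx3cl1 under WD and of Xcl1 under CD, which were among the 7. These are 26.5%, 20.6%, 44.1% and 8.82% of the chemokine genes, beside 25.3%, 27.9%, 22.5% and 23.6% of all genes in the same order. The 7KC ratios themselves were compared between diets. The log2 ratio under WD exceeded that under CD by 0.91 (counting interval 0.50 to 1.33) for Ccl6, by 0.97 (counting interval 0.54 to 1.40) for Cxcl9, by 1.37 (counting interval 0.38 to 2.36) for Ccr2 and by 0.76 (counting interval 0.27 to 1.26) for Cxcl16. The interval of this difference also lay above 0 for Ackr1, Ackr2, Ccl2, Ccl22, Ccl4, Ccl7, Cxcl10, Cxcl14 and Cxcl2. Some of these rest on few reads, such as Ackr1 with 1 read in WD, Ccl22 with 2 in CD+7KC and Cxcl2 with 3 in WD. At such numbers this interval is only approximate, and for Ccl7 it began at 0.02. No share over all genes was computed for these differences, so that they are not read as a trait of the family. For Cxcl12 the difference was 0.04 (counting interval -0.06 to 0.13), so that none was detectable for this gene.

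**Figure D1:**
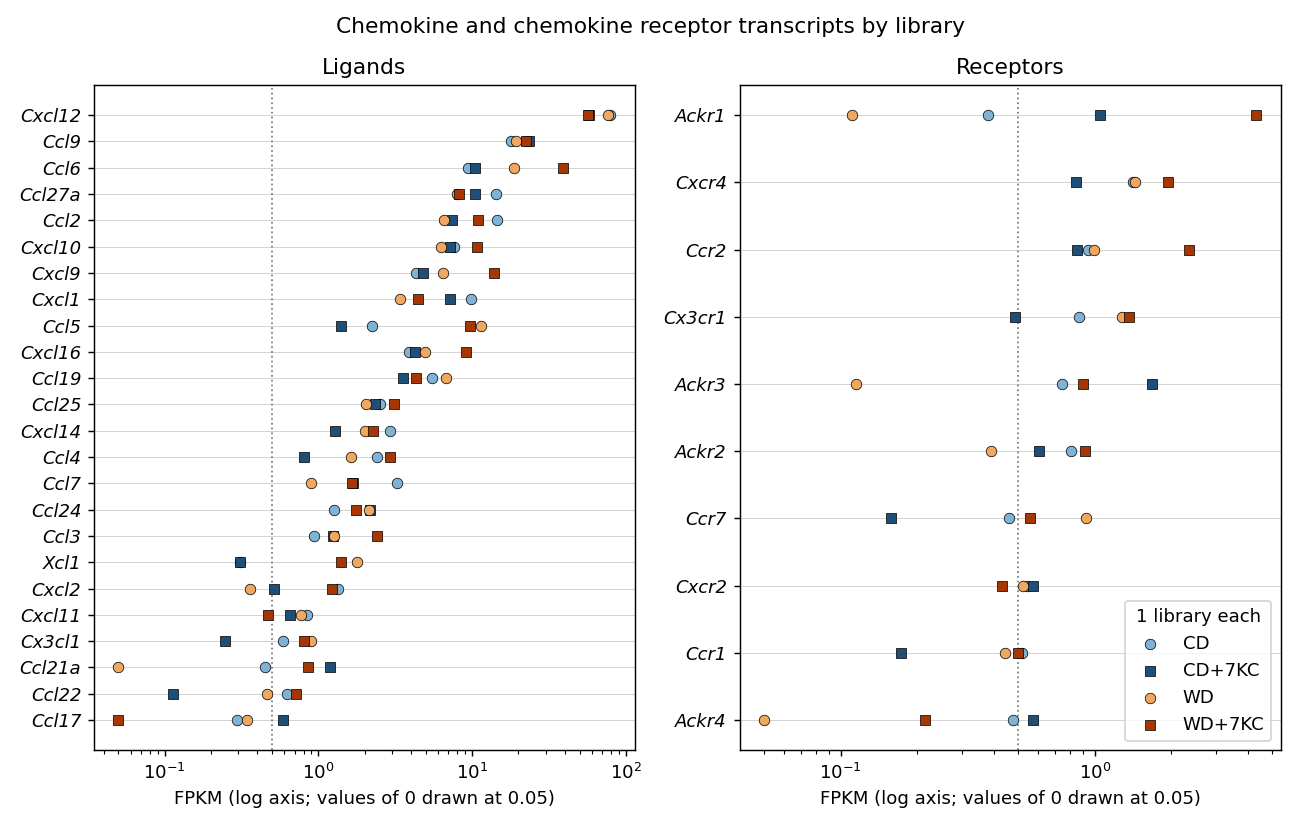
FPKM of the 24 ligands and 10 receptors in each library, on a log axis, with 1 point per library and genes ordered by their mean; the dotted line marks 0.5 FPKM and values of 0 are drawn at 0.05. Cxcl12 stands apart at 56.7 to 79.0 FPKM, and Ackr1, Ccr2, Ccl6, Cxcl9 and Cxcl16 have their highest value in WD+7KC.

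**Figure D2:**
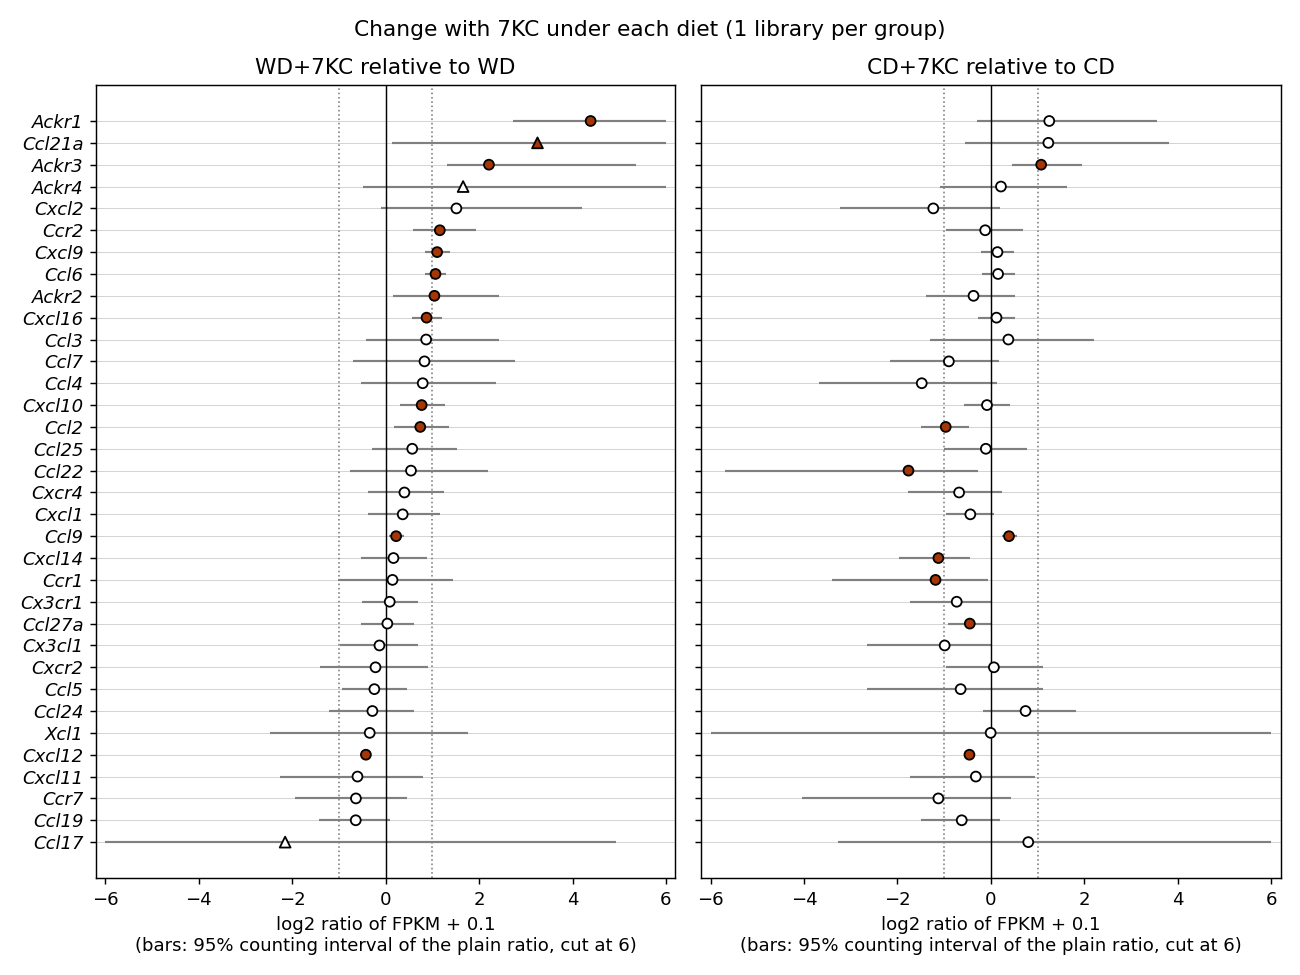
Log2 ratio of FPKM + 0.1 for each of the 34 genes in WD+7KC relative to WD (left) and in CD+7KC relative to CD (right); bars are 95% counting intervals cut at 6, filled points have an interval that leaves out 0, and triangles mark genes listed at 0 in 1 of the libraries. The left panel holds 11 filled points above 0 and 1 below, and the right panel 2 above and 6 below.

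Cxcl1 and Cxcl2, the ligands of Cxcr2 that draw neutrophils, were lowest in WD. Cxcl1 was at 9.78 (CD) and 7.19 (CD+7KC) FPKM on chow and 3.41 (WD) and 4.42 (WD+7KC) FPKM on the Western type diet. Its log2 ratio with 7KC was 0.36 under WD (counting interval -0.39 to 1.16) and -0.44 under CD (counting interval -0.95 to 0.06), so that neither difference was detectable at this depth. It was lower in WD than in CD, with a log2 ratio of -1.49 (counting interval -2.24 to -0.85), and lower in WD+7KC than in CD+7KC, with -0.69 (counting interval -1.32 to -0.10). The last of these became -0.48 after rescaling to equal sums, with an interval that held 0. Cxcl2 was also highest in CD and lowest in WD, at a lower level, with 0.361 FPKM in WD against 1.22 in WD+7KC and 1.35 FPKM in CD against 0.516 in CD+7KC, which rest on 13 (CD), 5 (CD+7KC), 3 (WD) and 13 (WD+7KC) reads. Its log2 ratio was 1.51 in WD+7KC relative to WD and -1.23 in CD+7KC relative to CD, both with intervals that held 0. After rescaling to equal sums the first interval lay above 0. As deposited, only WD relative to CD, with -1.65, had an interval that left out 0 for this gene (counting interval -4.35 to -0.04). Cxcl5, the other gene of this group above 0 in every library, stayed at 0.113 to 0.438 FPKM. Cxcr2, their receptor on neutrophils, varied little, with 0.543 (CD) and 0.573 (CD+7KC) FPKM on chow and 0.520 (WD) and 0.433 (WD+7KC) FPKM on the Western type diet. Neutrophil markers were few: the 8 marker genes in the tables summed to 16.1 FPKM in WD against 21.6 in WD+7KC and 21.9 FPKM in CD against 19.3 in CD+7KC, and Mpo was listed at 0 in each library. The low sum of WD came from S100a8, at 4.58 FPKM in WD beside 10.3 to 11.8 in the other libraries. S100a9, Retnlg, Csf3r, Elane, Camp and Ngp were not lowest in WD.

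Promoter sequences are shown for the pairs of neighbouring genes Cxcl1 and Cxcl2 and Cxcl9 and Cxcl10 on chromosome 5, because the genes of the first pair hold the same motif and were both lowest in WD, while those of the second pair, both highest in WD+7KC, share 1 motif and differ in the others. Cxcl10 was also lowest in WD. RefSeq windows (GRCm38.p6) run from 250 bases before to 50 bases after a gene's start, and 26 of the 34 genes had one. Capitals mark matches, on either strand, to an NF-kB type motif (GGG, any 3 bases, TTCC), a STAT type motif (TTC, any 3 bases, GAA), an ISRE type motif (GAAA, any 2 bases, GAAA) or an AP-1 type motif (TGA, any 1 base, TCA). Cxcl1 (chr5:90890995-90891294, + strand) and Cxcl2 (chr5:90903649-90903948, + strand) each hold 3 NF-kB type matches, some of which overlap. Cxcl10 (chr5:92348840-92349139, - strand) holds 2 NF-kB type matches, 1 ISRE type match and 1 AP-1 type match, and Cxcl9 (chr5:92328030-92328329, - strand) holds 1 AP-1 type match, which begins 32 bases after its start.
Cxcl1: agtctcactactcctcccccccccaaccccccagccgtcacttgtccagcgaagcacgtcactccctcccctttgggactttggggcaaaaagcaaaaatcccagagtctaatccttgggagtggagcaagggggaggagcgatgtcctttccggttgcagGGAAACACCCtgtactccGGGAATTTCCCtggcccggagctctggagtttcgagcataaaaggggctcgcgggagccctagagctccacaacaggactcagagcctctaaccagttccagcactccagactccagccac
Cxcl2: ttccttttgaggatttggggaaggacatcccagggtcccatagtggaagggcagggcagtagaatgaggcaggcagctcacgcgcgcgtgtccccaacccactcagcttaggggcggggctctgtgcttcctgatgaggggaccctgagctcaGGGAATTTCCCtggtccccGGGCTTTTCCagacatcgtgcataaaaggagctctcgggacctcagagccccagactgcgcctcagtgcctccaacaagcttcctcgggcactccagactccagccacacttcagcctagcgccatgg
Cxcl10: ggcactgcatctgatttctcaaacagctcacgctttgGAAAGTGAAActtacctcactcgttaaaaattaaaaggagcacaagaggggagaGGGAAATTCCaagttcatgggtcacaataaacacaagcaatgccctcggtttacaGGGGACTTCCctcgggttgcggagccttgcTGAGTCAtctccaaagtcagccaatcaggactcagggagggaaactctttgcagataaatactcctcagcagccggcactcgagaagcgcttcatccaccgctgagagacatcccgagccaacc
Cxcl9: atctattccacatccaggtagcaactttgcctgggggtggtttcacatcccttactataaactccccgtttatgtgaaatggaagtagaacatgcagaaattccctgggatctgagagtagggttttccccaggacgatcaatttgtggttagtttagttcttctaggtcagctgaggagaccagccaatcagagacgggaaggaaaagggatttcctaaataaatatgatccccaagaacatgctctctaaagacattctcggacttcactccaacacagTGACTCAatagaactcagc
Among the 29 windows of the chemokine genes, 13.8% held the NF-kB type motif, beside 5.56% of 32851 windows in the table, and the genes were Ccl9, Cxcl1, Cxcl10 and Cxcl2. For the other motifs the shares were 6.9% beside 8.3% (STAT type, Ccl17 and Cxcl14), 10.3% beside 3.44% (ISRE type, Ccl19, Cxcl10 and Cxcl14) and 13.8% beside 7.81% (AP-1 type, Ccl27a, Ccl9, Cxcl10 and Cxcl9). These are letter matches, not binding sites. Among the genes with log2 ratios above 1 in WD+7KC relative to WD, only Cxcl2 and Cxcl9 held a match. The windows of Ackr1, Ackr2, Ackr3, Ackr4, Ccl21a, Ccl6 and Ccr2 held none of the 4 motifs.

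Cxcl9, Cxcl10 and Cxcl11 are induced by interferon and attract T cells and NK cells through Cxcr3. Cxcl9 was highest in WD+7KC, with 4.30 (CD) and 4.75 (CD+7KC) FPKM on chow and 6.44 (WD) and 13.9 (WD+7KC) FPKM on the Western type diet. It was higher in WD+7KC than in WD by a log2 ratio of 1.10 (counting interval 0.85 to 1.38), while in CD+7KC relative to CD the ratio was 0.14 (counting interval -0.21 to 0.50). Between diets it was higher in WD than in CD by 0.57 (counting interval 0.24 to 0.93) and higher in WD+7KC than in CD+7KC by 1.53 (counting interval 1.28 to 1.84). Cxcl10 had a smaller difference in the same direction under WD, with 6.26 FPKM in WD against 10.7 in WD+7KC and 7.62 FPKM in CD against 7.19 in CD+7KC. Its log2 ratio was 0.77 (counting interval 0.30 to 1.28) in WD+7KC relative to WD and -0.08 (counting interval -0.57 to 0.41) in CD+7KC relative to CD. Exons of Cxcl10 overlap Art3 on the opposite strand, as those of Cxcl16, Ccl25, Ccl27a, Ackr4, Cx3cr1, Xcl1 and Cxcl11 overlap other genes. The libraries kept strand, but whether the counting used it is not stated. Cxcl11 did not follow its neighbours, with 0.844 (CD) and 0.656 (CD+7KC) FPKM on chow and 0.765 (WD) and 0.469 (WD+7KC) FPKM on the Western type diet, and its intervals held 0 in all 4 comparisons. The GENCODE annotation lists mouse Cxcl11 as a polymorphic pseudogene. Cxcr3, the shared receptor, stayed under the level filter at 0.129 to 0.322 FPKM (2 to 5 reads), and the interferon gene Ifng was listed at 0 in CD, CD+7KC and WD and was at 0.164 FPKM in WD+7KC.

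Cxcl12, which holds leukocytes in tissues through Cxcr4, was the highest of the 34 genes in every library and made up 25.5% to 40.9% of their summed FPKM. It was at 76.0 FPKM in WD against 56.7 in WD+7KC and 79.0 FPKM in CD against 57.5 in CD+7KC. Both libraries with 7KC were below both libraries without it. Its log2 ratio was -0.42 (counting interval -0.49 to -0.36) under WD and -0.46 (counting interval -0.52 to -0.39) under CD, and -0.21 and -0.42 after rescaling to equal sums. The reads behind these intervals assume the longest Cxcl12 mRNA, so that the intervals are too narrow if shorter ones were expressed. Diet made little difference to it, with -0.06 (counting interval -0.12 to 0.01) in WD relative to CD and -0.02 (counting interval -0.09 to 0.05) in WD+7KC relative to CD+7KC. The second of these turned to 0.19 after rescaling, with an interval above 0. Stellate cell markers, which mark a known source of Cxcl12, summed to 162 (CD) and 134 (CD+7KC) FPKM on chow and 171 (WD) and 165 (WD+7KC) FPKM on the Western type diet, and the 5 hepatocyte markers were all lower with 7KC under both diets. Most of the stellate sum was Dcn, at 118 to 145 FPKM. Sinusoidal endothelial markers went the other way, with 51.5 FPKM in WD against 148 in WD+7KC and 65.4 FPKM in CD against 94.4 in CD+7KC. The part of these cells in the Cxcl12 values was not tested. Cxcr4 was at 1.44 FPKM in WD against 1.94 in WD+7KC and 1.41 FPKM in CD against 0.843 in CD+7KC and was lowest in CD+7KC. Its difference between WD+7KC and CD+7KC was 1.11 (counting interval 0.30 to 2.16), and both 7KC comparisons had intervals that held 0.

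Cxcl16 and Cxcl14 complete the CXC ligands above the filter. Cxcl16, a membrane-bound ligand of Cxcr6 that also binds oxidised lipoproteins, was at 3.88 (CD) and 4.23 (CD+7KC) FPKM on chow and 4.94 (WD) and 9.14 (WD+7KC) FPKM on the Western type diet. WD+7KC stood above the 3 other libraries, with a log2 ratio of 0.88 (counting interval 0.57 to 1.21) relative to WD and of 1.09 (counting interval 0.79 to 1.44) relative to CD+7KC, while CD+7KC relative to CD gave 0.12 (counting interval -0.27 to 0.52). Cxcr6 itself was at 0.323 to 0.486 FPKM (6 to 10 reads), just under the filter. Cxcl14, an epithelial chemokine, had another pattern, with 2.02 FPKM in WD against 2.28 in WD+7KC and 2.91 FPKM in CD against 1.28 in CD+7KC. It was lower in CD+7KC than in CD, with a log2 ratio of -1.12 (counting interval -1.96 to -0.45), and in WD+7KC relative to WD its ratio was 0.17 (counting interval -0.52 to 0.88).

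Of the inflammatory CC ligands, Ccl2 and Ccl7 bind Ccr2 and recruit monocytes. Ccl2 was at 14.5 (CD) and 7.40 (CD+7KC) FPKM on chow and 6.52 (WD) and 11.0 (WD+7KC) FPKM on the Western type diet. Adding 7KC went with a lower value under CD and a higher value under WD: the log2 ratio was -0.97 (counting interval -1.50 to -0.47) in CD+7KC relative to CD and 0.74 (counting interval 0.18 to 1.35) in WD+7KC relative to WD. Without 7KC, WD was below CD, at -1.15 (counting interval -1.74 to -0.60), and with 7KC the order was turned, at 0.56 (counting interval 0.04 to 1.11). Ccl7, its neighbour on chromosome 11, had the same order of CD above WD without 7KC, with 0.891 FPKM in WD against 1.66 in WD+7KC and 3.22 FPKM in CD against 1.68 in CD+7KC, or 21.2 (CD), 11 (CD+7KC), 5 (WD) and 12 (WD+7KC) reads. Its interval left out 0 only in WD relative to CD, at -1.74 (counting interval -3.63 to -0.42). Ccl8 and Ccl12, which lie beside them and also act on monocytes, were at most 0.348 FPKM and rested on at most 1 read per library.

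Ccl3, Ccl4 and Ccl5 attract T cells, monocytes and NK cells. Ccl3 was at 0.934 (CD) and 1.24 (CD+7KC) FPKM on chow and 1.27 (WD) and 2.39 (WD+7KC) FPKM on the Western type diet, from 6 (CD), 8 (CD+7KC), 7 (WD) and 17 (WD+7KC) reads, and no interval left out 0. Ccl4 was lowest in CD+7KC, with 1.63 FPKM in WD against 2.90 in WD+7KC and 2.41 FPKM in CD against 0.799 in CD+7KC, from 12 (CD), 4 (CD+7KC), 7 (WD) and 16 (WD+7KC) reads. It was higher in WD+7KC than in CD+7KC by 1.74 (counting interval 0.23 to 3.90). Ccl5 differed by diet and not detectably by 7KC. It was at 2.24 (CD) and 1.40 (CD+7KC) FPKM on chow and 11.4 (WD) and 9.64 (WD+7KC) FPKM on the Western type diet, so that both WD libraries lay above both CD libraries. Its log2 ratio was 2.30 (counting interval 1.23 to 3.68) in WD relative to CD and 2.70 (counting interval 1.45 to 4.50) in WD+7KC relative to CD+7KC, beside -0.24 (counting interval -0.94 to 0.46) with 7KC under WD. T cells and NK cells are rich in Ccl5. The 7 NK cell markers summed to 7.29 FPKM in WD against 7.53 in WD+7KC and 1.33 FPKM in CD against 2.14 in CD+7KC, with Prf1 listed at 0 in CD and CD+7KC. The 9 T cell markers summed to 1.42 (CD) and 1.84 (CD+7KC) FPKM on chow and 4.14 (WD) and 3.42 (WD+7KC) FPKM on the Western type diet, with Cd5 listed at 0 in CD and WD and Cd8b1 in CD. These sums have the same split by diet, but Ncr1, Klrk1, Cd2, Cd4 and Cd5 on their own did not. The largest T cell value in WD was Cd3g, at 1.81 FPKM against 0.503 in WD+7KC. Only 5 of the 7 NK cell markers and 3 of the 9 T cell markers reached 0.5 FPKM in any library. The part of these cells in the Ccl5 values was not tested.

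Ccl6 and Ccl9 are made by mouse macrophages and bind Ccr1. Ccl6 had the largest FPKM difference of the ligands that were higher in WD+7KC, with 18.6 FPKM in WD against 39.1 in WD+7KC and 9.37 FPKM in CD against 10.4 in CD+7KC. In FPKM it was 2.10 times as high in WD+7KC as in WD, a log2 ratio of 1.07 (counting interval 0.84 to 1.30), and it was higher in WD than in CD by 0.98 (counting interval 0.67 to 1.32), and in CD+7KC relative to CD the ratio was 0.15 (counting interval -0.20 to 0.51). Ccl9, which lies next to Ccl6 on chromosome 11, varied less, with 18.0 (CD) and 23.5 (CD+7KC) FPKM on chow and 19.2 (WD) and 22.5 (WD+7KC) FPKM on the Western type diet. It was higher with 7KC under both diets, by 0.22 (counting interval 0.06 to 0.39) under WD and 0.39 (counting interval 0.23 to 0.55) under CD, and no diet difference was detectable. Ccl24, a ligand of Ccr3 that attracts eosinophils, was at 2.14 FPKM in WD against 1.74 in WD+7KC and 1.26 FPKM in CD against 2.17 in CD+7KC, and no interval left out 0.

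Homeostatic CC ligands place lymphocytes and dendritic cells in lymphoid tissue, skin or gut. Ccl19, a ligand of Ccr7, was at 5.49 (CD) and 3.53 (CD+7KC) FPKM on chow and 6.79 (WD) and 4.32 (WD+7KC) FPKM on the Western type diet, with log2 ratios of -0.64 under WD and -0.62 under CD with 7KC and intervals that held 0. Ccl21a, the other Ccr7 ligand, was listed at 0 in WD and was at 0.851 FPKM in WD+7KC, 1.18 in CD+7KC and 0.446 in CD, from under 9 reads in each library. Of the 75-base stretches of their mRNAs, the length of a read, 63.3% of Ccl19 and 61.3% of Ccl21a also occur in other annotated genes, and for Ccl27a the share was 55.5%, so that these values are uncertain. Ccl27a, a ligand of Ccr10, was at 8.01 FPKM in WD against 8.22 in WD+7KC and 14.3 FPKM in CD against 10.5 in CD+7KC. It was lower in WD than in CD, with a log2 ratio of -0.83 (counting interval -1.37 to -0.33).

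Ccl25, the ligand of Ccr9, was at 2.52 (CD) and 2.34 (CD+7KC) FPKM on chow and 2.05 (WD) and 3.08 (WD+7KC) FPKM on the Western type diet, with no interval that left out 0. Ccl22, a ligand of Ccr4 made by dendritic cells and macrophages, was at 0.460 FPKM in WD against 0.715 in WD+7KC and 0.622 FPKM in CD against 0.113 in CD+7KC, from 11 (CD), 2 (CD+7KC), 7 (WD) and 14 (WD+7KC) reads. Its value in CD+7KC was below the others, with -1.76 (counting interval -5.68 to -0.27) relative to CD. Ccl17, the other Ccr4 ligand, rested on 1 (CD), 2 (CD+7KC), 1 (WD) and 0 (WD+7KC) reads, too few for any comparison.

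Cx3cl1, a membrane-bound ligand of Cx3cr1, was at 0.586 (CD) and 0.246 (CD+7KC) FPKM on chow and 0.897 (WD) and 0.809 (WD+7KC) FPKM on the Western type diet, and Cx3cr1, which marks monocytes and some macrophages, at 1.28 FPKM in WD against 1.36 in WD+7KC and 0.869 FPKM in CD against 0.484 in CD+7KC. Ligand and receptor were both lowest in CD+7KC. In WD+7KC relative to CD+7KC their log2 ratios were 1.39 (counting interval 0.56 to 3.06) and 1.33 (counting interval 0.73 to 2.32), and with 7KC under WD they were -0.13 and 0.09, with intervals that held 0, and the first became 0.06 after rescaling to equal sums. Xcl1, made by NK cells and T cells, was at 0.308 (CD) and 0.307 (CD+7KC) FPKM on chow and 1.79 (WD) and 1.39 (WD+7KC) FPKM on the Western type diet, from 1 (CD), 1 (CD+7KC), 5 (WD) and 5 (WD+7KC) reads, and its intervals held 0. Its receptor Xcr1, a marker of cross-presenting dendritic cells, was at 0.0854 to 0.234 FPKM.

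Among CC receptors, Ccr2, which brings monocytes from blood to tissue, was highest in WD+7KC, at 0.997 FPKM in WD against 2.35 in WD+7KC and 0.938 FPKM in CD against 0.854 in CD+7KC. The 3 other libraries lay within 0.854 to 0.997 FPKM, and WD+7KC was above them, 2.36-fold or 1.16 (counting interval 0.59 to 1.93) relative to WD and by 1.36 (counting interval 0.81 to 2.15) relative to CD+7KC. Of its mRNA, 2.67% of the 75-base stretches also occur in another gene.

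Ccr1, the receptor of Ccl3, Ccl6 and Ccl9, was at 0.518 (CD) and 0.172 (CD+7KC) FPKM on chow and 0.442 (WD) and 0.50 (WD+7KC) FPKM on the Western type diet, from 15 (CD), 5 (CD+7KC), 11 (WD) and 16 (WD+7KC) reads. It was lowest in CD+7KC, with -1.18 (counting interval -3.40 to -0.06) relative to CD. Ccr7, the receptor of Ccl19 and Ccl21a on dendritic cells and naive T cells, was at 0.920 FPKM in WD against 0.556 in WD+7KC and 0.461 FPKM in CD against 0.158 in CD+7KC, from at most 15.4 reads, and no interval left out 0.

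Atypical receptors all had their lowest value in WD. Ackr1, the Duffy antigen, which carries chemokines on red cells and across venular endothelium, was at 0.381 (CD) and 1.05 (CD+7KC) FPKM on chow and 0.111 (WD) and 4.31 (WD+7KC) FPKM on the Western type diet, from 4 (CD), 11 (CD+7KC), 1 (WD) and 49.7 (WD+7KC) reads. It was higher in WD+7KC than in WD by 4.39 (counting interval 2.73 to 10.61), but the lower bound rests on 1 read in WD. Relative to CD+7KC, with 11 reads, WD+7KC was higher by 1.95 (counting interval 1.07 to 3.13). Erythroid markers were lowest in WD+7KC, at 104 FPKM in sum, where Ackr1 was highest. Some exons of Ackr1 overlap Cadm3 on the same strand. Cadm3 was at 1.41 FPKM in WD against 1.22 in WD+7KC and 1.03 FPKM in CD against 1.30 in CD+7KC, and its part in the Ackr1 values was not tested.

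Ackr3, which scavenges Cxcl12, was at 0.743 (CD) and 1.68 (CD+7KC) FPKM on chow and 0.115 (WD) and 0.896 (WD+7KC) FPKM on the Western type diet, from 23.1 (CD), 52.3 (CD+7KC), 3 (WD) and 30.8 (WD+7KC) reads. It was higher with 7KC under both diets, by 2.21 (counting interval 1.32 to 5.35) under WD and 1.08 (counting interval 0.44 to 1.95) under CD, and lower in WD than in CD, with a log2 ratio of -1.97 (counting interval -5.11 to -1.0). The ratio under WD rests on 3 reads in WD and was 0.77 with 1 FPKM added in place of 0.1. With 7KC, Cxcl12 was lower and Ackr3 higher under both diets. Between diets Ackr3 was lower in WD than in CD (-1.97) and lower in WD+7KC than in CD+7KC (-0.84), while the ratios of Cxcl12 were -0.06 and -0.02. A link between these genes was not tested. Ackr2, which degrades inflammatory CC chemokines, was at 0.391 FPKM in WD against 0.913 in WD+7KC and 0.810 FPKM in CD against 0.604 in CD+7KC and was higher in WD+7KC than in WD by 1.04 (counting interval 0.16 to 2.43). Ackr4, which scavenges Ccl19, Ccl21a and Ccl25, was listed at 0 in WD and was at 0.215 FPKM in WD+7KC, 0.570 in CD+7KC and 0.477 in CD. Its values rested on 10 (CD), 12 (CD+7KC), 0 (WD) and 5 (WD+7KC) reads, and the interval of WD relative to CD lay below 0 (-0.95 at its upper end). Exons of Ackr4 overlap Acad11 on the opposite strand. Acad11 was far higher, at 169 (CD), 186 (CD+7KC), 135 (WD) and 131 (WD+7KC) FPKM. Whether the counting used the strand is not stated, and the part of Acad11 in the Ackr4 values was not tested.

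**Figure D3:**
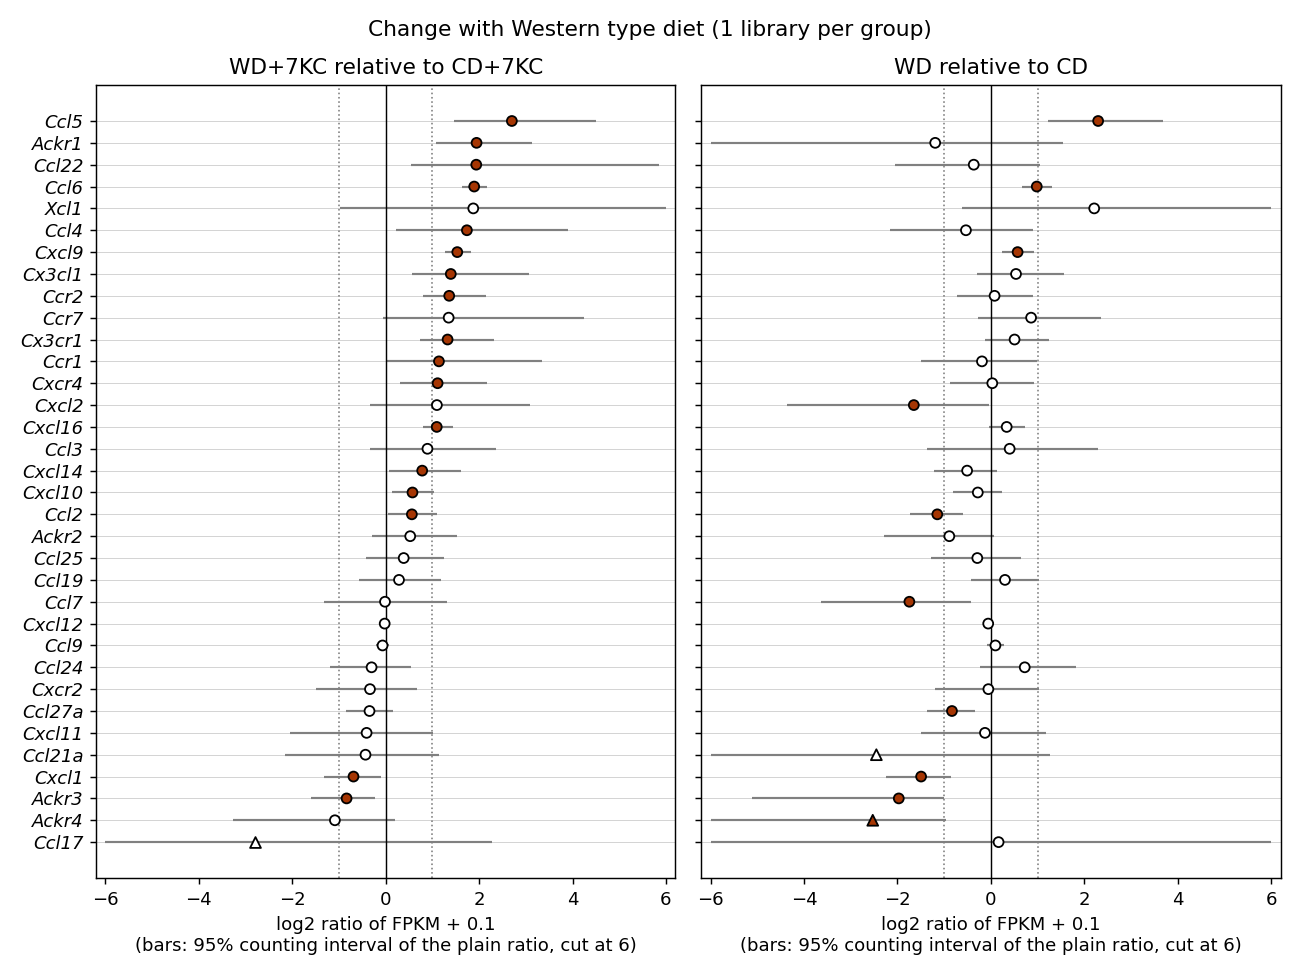
Log2 ratio of FPKM + 0.1 for each of the 34 genes between diets, with 7KC (left) and without it (right), drawn as in the plot of the 7KC ratios. The left panel holds 15 filled points above 0 and 2 below, and the right panel 3 above and 7 below, with Ccl5 highest in both, and rescaling to equal sums gives 17 and 1 on the left.

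Diet comparisons share libraries with the 7KC comparisons, and each is given with its own values. In WD relative to CD, 15 genes were higher (44.1%, beside 50.1% of all genes) and 19 lower, and their median was -0.09 beside 0.00 over all genes. Ccl5 and Xcl1 had log2 ratios above 1 (2 genes, 5.88%, beside 4.02%), and Ackr1, Ackr3, Ackr4, Ccl2, Ccl21a, Ccl7, Cxcl1 and Cxcl2 had ratios below -1 (8 genes, 23.5%, beside 3.18%). Counting intervals lay above 0 for 3 genes (8.82%, beside 20.2%) and below 0 for 7 (20.6%), beside 22.2%. In WD+7KC relative to CD+7KC, 22 genes were higher (64.7%, beside 49.2% of all genes) and 12 lower, and their median was 0.68 beside -0.01. Ratios above 1 were found for 15 genes (44.1%, beside 7.19%) and below -1 for Ackr4 and Ccl17 (5.88%, beside 3.74%). Intervals lay above 0 for 15 genes (44.1%, beside 24.1%) and below 0 for Ackr3 and Cxcl1 (5.88%, beside 24.8%). After rescaling to equal sums the intervals lay above 0 for 17 genes and below 0 for 1.

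**Figure D4:**
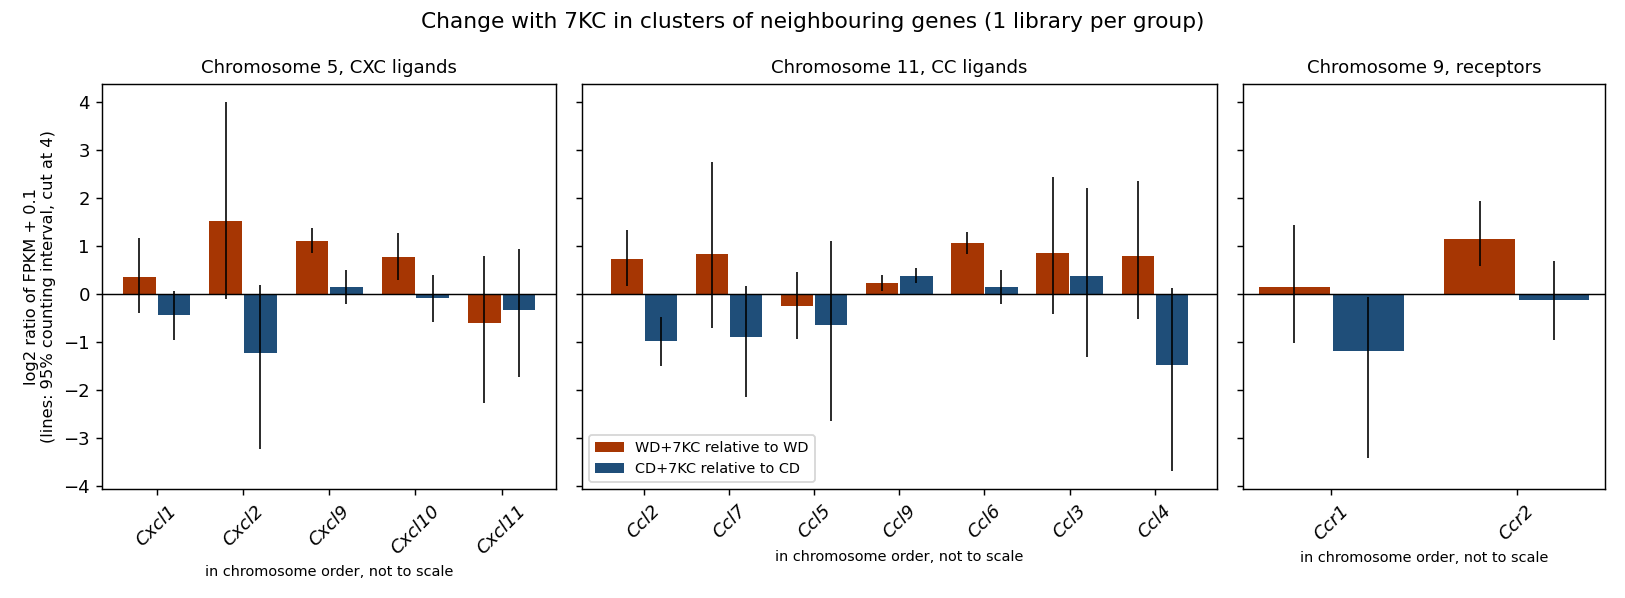
Log2 ratio of FPKM + 0.1 with 7KC under WD (red) and under CD (blue) for neighbouring genes on chromosomes 5, 11 and 9, in chromosome order and not to scale; lines are 95% counting intervals cut at 4. Of the 14 genes, Cxcl11 and Ccl5 have red bars below 0, and Cxcl9, Ccl9, Ccl6 and Ccl3 have blue bars above 0.

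Many of these genes lie in clusters, with coordinates in GRCm38. On chromosome 11, Ccl2 (82035571 to 82037453) and Ccl7 (82045712 to 82047525) lie together, and Ccl5 (83525778 to 83530518), Ccl9 (83572919 to 83578636), Ccl6 (83587882 to 83593087), Ccl3 (83647844 to 83649355) and Ccl4 (83662584 to 83664683) form another stretch. Neighbours did not share 1 pattern: Ccl5 differed by diet with no detectable 7KC difference, Ccl6 was highest in WD+7KC, and Ccl9 varied little. On chromosome 9, Ccr1 (123962124 to 123968692) and Ccr2 (124101950 to 124113557) lie in the same region. Ccr2 had a log2 ratio above 1 in WD+7KC relative to WD, and Ccr1 had 0.15 (counting interval -1.02 to 1.44). On chromosome 5, Cxcl9 (92321347 to 92328079), Cxcl10 (92346638 to 92348889) and Cxcl11 (92359544 to 92365485) lie in order of falling ratios in WD+7KC relative to WD, and after 7KC on chow all 3 had intervals that held 0.

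**Figure D5:**
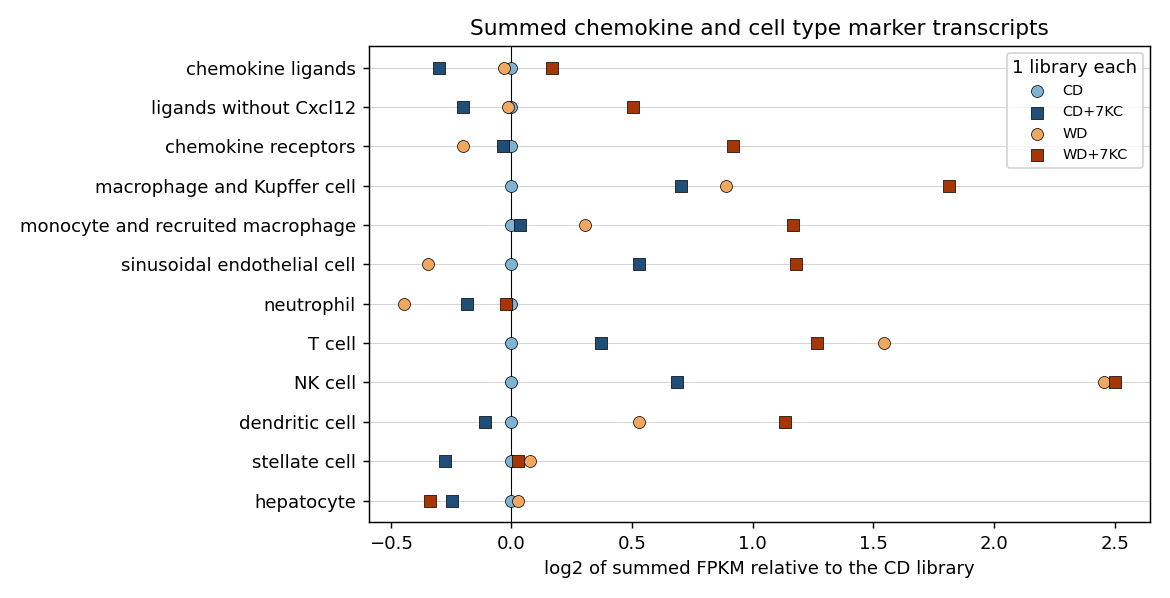
Summed FPKM of the chemokine ligands and receptors and of marker lists of liver cell types, as log2 relative to the CD library, with 1 point per library. Receptors, macrophage, monocyte and sinusoidal endothelial markers all have their highest value in WD+7KC.

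Receptors summed to 7.15 (CD) and 6.98 (CD+7KC) FPKM on chow and 6.22 (WD) and 13.5 (WD+7KC) FPKM on the Western type diet. Much of the difference between WD and WD+7KC was the atypical receptor Ackr1, at 0.111 FPKM in WD and 4.31 in WD+7KC. Ligands without Cxcl12 summed to 106 FPKM in WD against 152 in WD+7KC and 107 FPKM in CD against 93.3 in CD+7KC, so that both sums were highest in WD+7KC. Marker sums of 6 of 14 cell classes were highest in the same library: macrophages, monocytes, sinusoidal endothelial cells, dendritic cells, NK cells and cholangiocytes. The NK cell sums of WD and WD+7KC lay close together, at 7.29 and 7.53 FPKM. The 14 macrophage and Kupffer cell markers, all above 0 in every library, summed to 206 (CD) and 335 (CD+7KC) FPKM on chow and 382 (WD) and 724 (WD+7KC) FPKM on the Western type diet, and all 14 were higher in WD+7KC than in WD. All 8 markers of monocytes and recruited macrophages were higher as well, with sums of 118 FPKM in WD against 215 in WD+7KC and 95.6 FPKM in CD against 98.0 in CD+7KC. On chow 6 of these 8 were lower with 7KC (median log2 ratio -0.53), and Lyz2, which makes up most of the sum, was at 77.2 FPKM in CD+7KC and 65.9 in CD. The 8 sinusoidal endothelial markers summed to 65.4 (CD) and 94.4 (CD+7KC) FPKM on chow and 51.5 (WD) and 148 (WD+7KC) FPKM on the Western type diet, and all 8 had log2 ratios above 1 in WD+7KC relative to WD. Their order of libraries, with WD lowest, was also that of Ackr1. Dendritic cell markers summed to 5.25 FPKM in WD against 7.98 in WD+7KC and 3.64 FPKM in CD against 3.38 in CD+7KC. Cholangiocyte markers summed to 102 (CD) and 46.4 (CD+7KC) FPKM on chow and 126 (WD) and 186 (WD+7KC) FPKM on the Western type diet. Spp1 made up most of this sum, at 183 FPKM in WD+7KC and 98.7 in CD. Krt19, Krt7 and Sox9 were highest in CD, and Epcam was at 1.03 FPKM in CD and 1.06 in WD+7KC. The part of these cells in the chemokine values was not tested. Over the other lists the sums ranged from 2.2 to 3.92 FPKM for B and plasma cells, from 42500 to 54700 for hepatocytes, from 104 to 191 for erythroid cells and from 2.97 to 6.45 for platelets. Of the adipose markers, Plin1 and Lep were listed at 0 in every library and Cfd was at 1.47 FPKM in WD against 0.115 in WD+7KC and 219.99 FPKM in CD against 63.2 in CD+7KC.

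Of 31 genes above 0.5 FPKM that carry the chemokine signal inside cells, which include G protein subunits, arrestins, receptor kinases, Rac activators and regulators of G protein signalling, 27 were higher and 4 lower than in WD (median log2 ratio 0.49), while 47.9% of all genes were higher. Ratios above 1 were found for 2 of the 31, near the 4.77% of all genes, and below -1 for 0. Elmo1, which activates Rac, had the highest ratio, at 1.54 FPKM in WD+7KC and 0.589 in WD, and the lowest was that of the G protein subunit gene Gnai1, at 1.32 and 1.87 FPKM. In CD+7KC relative to CD, 21 were higher and 10 lower (median 0.09), while 49.1% of all genes were higher. Rgs1, at 2.02 FPKM in CD and 5.39 in CD+7KC, and Rgs19, at 1.51 and 0.754, were the extremes.

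Of 11 genes that govern chemokine transcription, which include cytokines, NF-kB and interferon factors and the NF-kB inhibitor gene Nfkbia, 9 were higher and 2 lower in WD+7KC relative to WD (median 0.27), and 3 were higher and 8 lower in CD+7KC relative to CD (median -0.16), beside 47.9% and 49.1% of all genes that were higher. The cytokine gene Il1a had the highest ratio in both, at 1.59 (CD) and 2.76 (CD+7KC) FPKM on chow and 1.55 (WD) and 3.39 (WD+7KC) FPKM on the Western type diet. The lowest were Nfkbia under WD (27.0 FPKM in WD and 22.5 in WD+7KC) and Nfkb2 under CD (5.10 in CD and 3.49 in CD+7KC). Il6 was listed at 0 in every library, and Tnf was under the filter at 0.129 to 0.397 FPKM.

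Of the remaining 27 family members, 8 were listed at 0 in every library: Ccl20, Ccl21b, Ccl21c, Ccl26, Ccl27b, Ccr8, Cxcl15 and Cxcl17. Another 19 stayed between 0 and 0.5 FPKM, among them the receptors Ccr3, Ccr4, Ccr6, Ccr9, Ccr10, Cxcr1, Cxcr5 and Xcr1. Cxcr6 came nearest to the filter from below with 0.486 FPKM, and Ccr1 from above with 0.518 FPKM as its highest value. Several ligands above the filter therefore had a receptor below it, as in Ccl22 and Ccr4, Ccl25 and Ccr9, Ccl27a and Ccr10, Cxcl9 and Cxcr3, and Cxcl16 and Cxcr6.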

How the data were processed

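Poly(A) RNA of whole liver was sequenced from a stranded library in each of 4 groups, 1 library per group, with single-end reads of 75 bases. The authors mapped the reads to mm10 with TopHat2 2.0.13, Bowtie2 2.2.3 and SAMtools 0.1.19 and deposited FPKM values per gene symbol made with Cufflinks 2.2.1 (the submitters' processing notes); the annotation, the strand setting and the mice per library are not given in the sources used here. Cufflinks weighs reads that map to several places, so genes with close copies are uncertain.

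Ratios were taken as log2(FPKM + 0.1), which understates differences of low genes, over genes with at least 0.5 FPKM in any library. Where whole reads were counted, low FPKM values are multiples of what 1 read is worth. Depth was estimated from these steps with GENCODE transcript lengths, and 73.3% to 74.8% of low values came out within 0.1 of a whole read. Of the 34 genes described, 19 had whole reads below 20, 3 had values that were not whole steps (Ccl21a, Ccr7 and Cxcl11), and 12 had reads taken from length and depth alone. Ackr2, Ccl25, Ccl27a and Cxcl12 have several annotated mRNAs, and the longest was used. Their reads could be overstated and their intervals too narrow if shorter ones were expressed. Intervals at 95% (Clopper-Pearson, scipy 1.17.1) compare 2 libraries and cover counting error only. The interval of a difference between 2 ratios was computed on the log scale from 1 over each read number. The steps were tested on simulated data. The 9440000 to 12100000 fragments per library set the width of the intervals.

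Of the family, 1 symbol is not reported here; the other symbols were named, with lists of chemokine relatives, signalling genes, inducers and markers of 14 cell types. The members and lists were chosen with earlier results of these data known. In the signalling, inducer and relative lists, the genes with the highest and lowest ratio in each 7KC comparison were named. Alternatives were other added values (1 and 0.01 FPKM), equal sums, equal upper quartiles, a filter of 1 FPKM and no filter. Promoter windows came from RefSeq (GRCm38.p6).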

Additional observations from a re-analysis of the deposited data

Results flagged for a closer look

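Ccl2 was singled out because its 2 ratios with 7KC lay on opposite sides of 0, with counting intervals that both left out 0. Its log2 ratio was 0.74 in WD+7KC relative to WD and -0.97 in CD+7KC relative to CD, a difference of 1.72 (counting interval 0.98 to 2.47). Given how the gene was picked, this last interval had to leave out 0 and adds no support. The estimated reads were 97.5 (CD), 49.8 (CD+7KC), 37.7 (WD) and 81.3 (WD+7KC). The difference between the diets was not tested across mice, since each ratio compares 1 library with 1 library.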

How the results depend on the processing

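Counts given here are those that moved by over 1.5 times under an alternative, which follows from its construction (a larger added value, a shorter or longer gene list, another scale). With 1 FPKM added in place of 0.1, log2 ratios above 1 were left for 3 genes in WD+7KC relative to WD, 0 in CD+7KC relative to CD and 5 in WD+7KC relative to CD+7KC, and ratios below -1 for 0, 0 and 0 genes in these comparisons and 3 in WD relative to CD. Over genes with at least 1 FPKM in any library, ratios below -1 were found for 0 genes in WD+7KC relative to WD, 3 in CD+7KC relative to CD and 0 in WD+7KC relative to CD+7KC. With no filter they were found for 3 genes in WD+7KC relative to WD and 5 in WD+7KC relative to CD+7KC, and ratios above 1 for 5 in CD+7KC relative to CD. With equal sums, WD+7KC relative to CD+7KC had 1 ratio below -1 and 1 counting interval below 0. Equal sums turned the sign of Cx3cl1 in WD+7KC relative to WD, Xcl1 in CD+7KC relative to CD (also with equal upper quartiles), and Ccl7, Ccl9 and Cxcl12 in WD+7KC relative to CD+7KC. Of the single-gene ratios, 6 of 136 left their counting interval with 1 FPKM added and 4 of 136 with equal sums. The 6 were Ackr1 and Ackr3 in WD+7KC relative to WD, Ackr3 and Ackr4 in WD relative to CD, and Cx3cl1 and Cx3cr1 in WD+7KC relative to CD+7KC. No paired analysis was possible because each group had 1 library, and for the same reason none could be left out. Genes with few reads have wide intervals, such as Ccl3 in WD+7KC relative to WD (-0.42 to 2.43), and smaller differences were not detectable for them.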

Other observations

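Relatives of the chemokine family under other symbols did not share 1 direction. Of 8 such genes in the tables, 3 were higher and 5 lower in WD+7KC relative to WD (median log2 ratio -0.09). Cmklr1, the receptor of chemerin on macrophages, was at 3.01 FPKM in WD+7KC and 1.24 in WD, and the platelet chemokine gene Ppbp was at 0.188 and 1.21 FPKM. In CD+7KC relative to CD, 5 were higher and 3 lower (median 0.12). Ppbp was at 0.932 FPKM in CD+7KC and 0.312 in CD, and Pf4, the other platelet chemokine gene, at 0.951 and 3.82 FPKM. Both platelet genes thus went opposite ways on chow, and both were lower in WD+7KC than in WD, where Pf4 was at 2.59 and 3.88 FPKM.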
